A study of Mus musculus with 10 samples.

Results

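Classical cadherins and non-clustered protocadherins are cell-surface adhesion proteins, and the 33 genes described here are the symbols formed by Cdh or Pcdh and a number (with a final x allowed for Pcdh) that had at least 50 UMIs over all nuclei, out of 33502 gene symbols counted. Classical cadherins bind the same or a closely related cadherin on the neighbouring cell through their outer domains, need calcium to do so, and hold the actin skeleton through catenins inside the cell. In the developing brain, cells that carry the same cadherins tend to stay together, and combinations of type II cadherins mark nuclei, layers and the partners of a synapse. The non-clustered protocadherins, of which the delta-1 and delta-2 groups are the main branches, adhere more weakly and are known for roles in axon growth, sorting and synapse formation. The set held 5 type I classical cadherins, 13 type II classical cadherins, 4 other cadherins, 4 delta-1 protocadherins, 5 delta-2 protocadherins and 2 other protocadherins. *Cdh17*, an intestinal cadherin, and *Pcdh12*, an endothelial protocadherin, fell below the minimum with 13 and 15 UMIs. The members just above it were *Cdh16*, a kidney cadherin, with 52 UMIs, *Cdh1* (E-cadherin) with 77 and *Cdh15* (M-cadherin) with 85, all 85 of them in the libraries whose title gives no sex.

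Nuclei came from tissue punches around the thalamic paraventricular nucleus (PVT) in C57BL/6J mice aged 12 weeks, with no genetic change or treatment named in the labels. By the methods several animals went into each sample, but these name 4 replicates and not the 10 libraries here. The 10 libraries form 2 sets, 6 labelled female and 4 whose title gives no sex; the deposited metadata call all 13002 nuclei of the latter male. Each of the 20503 nuclei carries a cluster name given by the authors, and these names fall into 8 cell types. The 4 libraries with no sex in the title held 875 to 7213 nuclei with a median of 12586 to 21085 UMIs per neuron, and the 6 female libraries held 1049 to 1615 nuclei with a median of 5666 to 9770 UMIs per neuron. In all, these libraries held 7568267 to 55956635 and 5119927 to 12891409 UMIs, molecular tags of which each counted one stands for 1 captured RNA molecule. Of 20457 distinct barcodes, 46 occurred in more than 1 library. UMIs were summed per library and cell type, at least 10 nuclei to a sum, and levels are given as counts per 1000000 UMIs (CPM). For the members' levels the total of each sum was first multiplied by its TMM factor, edgeR's correction for composition, of 0.810 to 1.37 over the cell type sums, and the factors were fitted anew for each set of classes, so that levels are comparable within one set of classes only. Marker lists, levels of members below the filter quoted with their UMIs, folds against a limit of 3 counts, and the reading against neuronal background use the plain total. Levels are compared between classes of nuclei and never between genes, because long genes give more molecules in nuclear RNA: over the 33 genes, UMIs and genomic span had a Spearman rho of 0.795, a description over genes that share the same libraries.

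In 3 sums the labelled cell type did not have the highest markers. All 3 belonged to replicate 4 of the libraries with no sex in the title. Its 18 nuclei named OPCs had 522 CPM of the OPC markers against 1833 of the neuron markers, its 87 ependymal nuclei 1147 against 1629, and its 18 fibroblast nuclei 389 against 1556. Counts of calls in OPCs and fibroblasts are therefore given with and without those sums, and for ependymal cells the call lost without its sum. Levels, ranges and fold changes in these types include those sums. RNA of neurons was also counted in every other type. The summed neuron markers stood at 10.2% of their neuronal level in astrocytes, 14.6% in oligodendrocytes, 21.0% in oligodendrocyte precursor cells (OPCs), 18.1% in microglia, 19.97% in ependymal cells, 18.5% in endothelial cells and 24.1% in fibroblasts. A member whose level in such a type was at or below that percent of its neuronal level is read as background there.

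Across the 8 cell types the 33 genes split mainly between neurons and the cells of the oligodendrocyte and astrocyte lineages (heat map of levels by cell type). Neurons had the higher levels of *Cdh12*, *Cdh18*, *Cdh8*, *Cdh4* and *Cdh7*, astrocytes and oligodendrocytes of *Cdh19* and *Cdh20*, and OPCs of *Pcdh15* and *Pcdh11x*, while *Cdh23* stood out in microglia, *Cdh26* in ependymal cells and *Cdh5* in endothelial cells. *Cdh19* and *Cdh20* were called higher in OPCs too. Each type was compared with the log2 mean of all remaining types, with calls made at an adjusted p below 0.05, as higher above a log2 difference of 0.5 and as lower below -0.5. The low-count filter was passed by 24 of the 33 genes and not by *Cdh1*, *Cdh3*, *Cdh9*, *Cdh15*, *Cdh16*, *Cdh24*, *Pcdh8*, *Pcdh18* and *Pcdh20*. In the F test over all types 24 of the 24 differed, beside 97% of the 9842 genes tested, and each of the 24 was called higher in at least 1 type, beside 87.1%. The ratio of the highest to the lowest type mean ranged from 6.57 to 289.9-fold with a median of 19.9-fold, *Cdh5* left out because it was at 0 in some types.

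**Figure D1:**
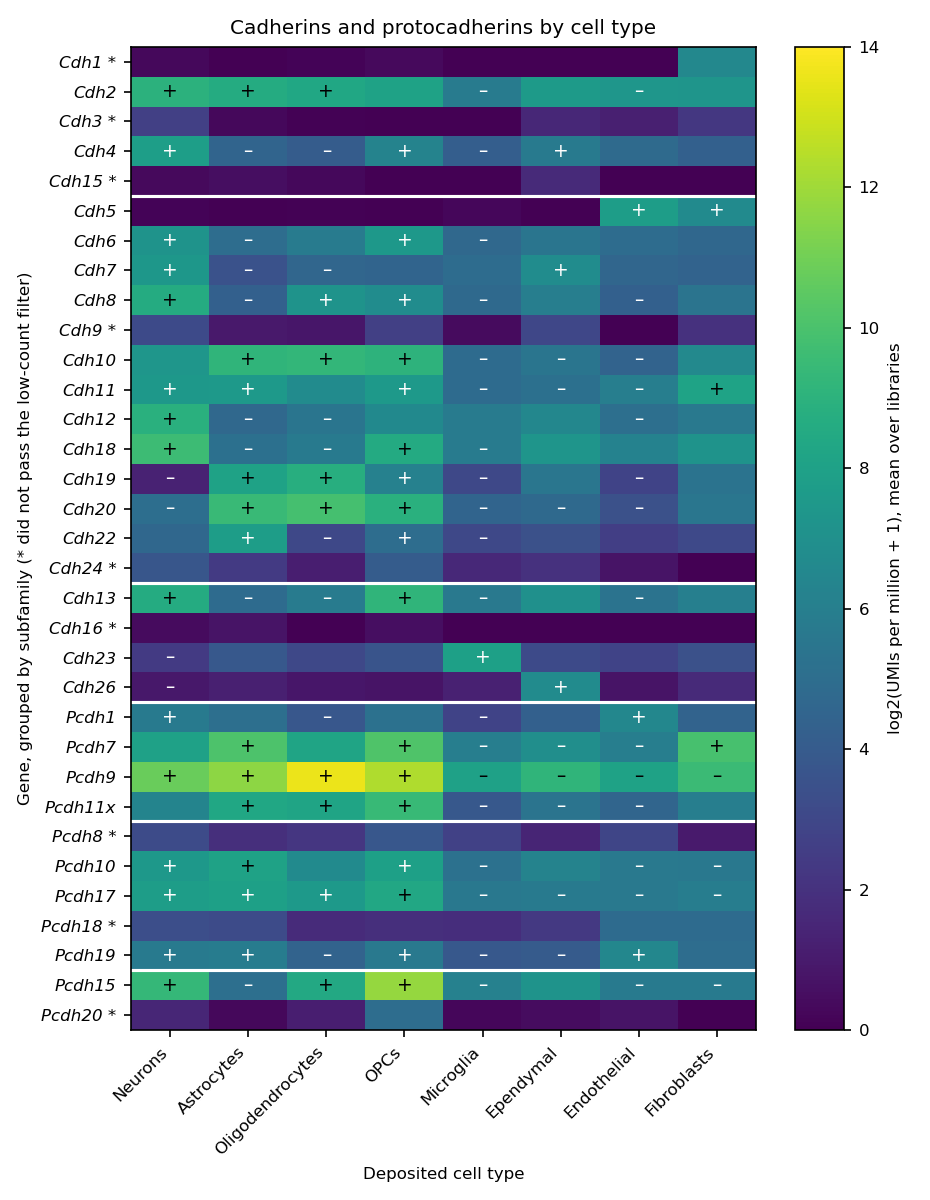
Mean level of the 33 genes (vertical axis, grouped by subfamily) in the 8 deposited cell types (horizontal axis). Colour gives log2(CPM + 1), the mean over libraries, a plus marks a gene called higher and a minus a gene called lower than the mean of the other types, and an asterisk marks the 9 genes that did not pass the low-count filter; neurons carry 15 plus signs, OPCs 17 and microglia 1, which is at *Cdh23*.

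In neurons 15 of the 24 tested members were higher and 4 lower, beside 29.5% of all genes higher and 27.9% lower. The members' median log2 difference was 0.94, that of all genes tested 0.00. *Cdh12*, a type II cadherin of brain, had a lowest, median and highest level of 392, 455 and 596 CPM over the 10 libraries, and its highest level in any sum of another type was 313 (log2 fold change 3.46 ± 0.16 SE, adjusted p = 3.15e-31). Neurons and the other types thus did not overlap for *Cdh12*, and the same held for *Cdh8* and *Cdh4*. *Cdh8*, a type II cadherin found at synapses, had 337, 371 and 542 CPM in neurons against at most 222 elsewhere (log2 fold change 3.20 ± 0.15 SE, adjusted p = 4.93e-31). *Cdh4*, the retinal cadherin, had 165, 239 and 258 against at most 128 (log2 fold change 2.93 ± 0.12 SE, adjusted p = 2.27e-33). *Cdh18* had 586, 775 and 922 in neurons and overlapped with a fibroblast sum and with the OPC sum of replicate 4 of the libraries with no sex in the title, at 719 (log2 fold change 3.29 ± 0.19 SE, adjusted p = 2.12e-25). *Cdh7* had 139, 166 and 206, overlapping with ependymal sums of up to 185 (log2 fold change 2.76 ± 0.14 SE, adjusted p = 3.29e-28). Neuronal levels were also higher for *Cdh13*, *Pcdh15*, *Cdh6*, *Cdh2*, *Pcdh17*, *Pcdh1*, *Pcdh10*, *Cdh11*, *Pcdh19* and *Pcdh9*, by 0.64 to 2.32 on the log2 scale. *Pcdh9* passed only because the comparison is with a mean of logarithms: in all 10 libraries its level lay under the arithmetic mean of the rest. Of the 15 members called, 12 were above that mean in every library. *Pcdh15* and *Cdh11*, like *Pcdh9*, were not. The genes lower in neurons were *Cdh19*, *Cdh20*, *Cdh23* and *Cdh26*.

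Astrocytes and oligodendrocytes shared high levels of *Cdh19*, *Cdh20* and *Cdh10*, type II cadherins of which *Cdh19* is otherwise known from Schwann cells, and they parted at *Cdh22*. *Cdh19*, *Cdh20* and *Cdh10* were also called higher in OPCs. There *Cdh20* ranged from 238 to 564 CPM over the libraries, overlapping with astrocytes, and *Cdh19* from 40.9 to 112, below astrocytes. In astrocytes 12 members were higher and 8 lower, beside 22% and 19.4% of all genes, and the median member difference was 0.53 beside 0.01 for all genes. *Cdh22* had 172, 199.8 and 362 CPM in astrocytes as lowest, median and highest library, above each of the other sums, which reached 53.1 (log2 fold change 4.20 ± 0.15 SE, adjusted p = 1.43e-38). In oligodendrocytes the same gene was lower than in the mean of the others, at a median of 6.06 (-1.42 ± 0.33 (adjusted p = 0.000158) on the log2 scale). *Cdh19* had 185, 281 and 338 in astrocytes (log2 fold change 3.44 ± 0.12 SE, adjusted p = 3.23e-38) and 269.6, 436 and 587 in oligodendrocytes (log2 fold change 4.24 ± 0.12 SE, adjusted p = 1.61e-44), where neurons had 1.52 ± 0.820 (SD, n = 10). Neither glial type overlapped with neurons for this gene. *Cdh20* had 484, 675 and 1061 in astrocytes (log2 fold change 3.45 ± 0.17 SE, adjusted p = 2.03e-30) and 629, 981 and 1341 in oligodendrocytes (log2 fold change 3.88 ± 0.16 SE, adjusted p = 8.72e-34), so that these 2 ranges overlapped with each other. *Cdh10* differed little between them, at medians of 572 and 604. *Pcdh7*, a delta-1 protocadherin, was higher in astrocytes (738, 1071 and 1404, log2 fold change 2.21 ± 0.16 SE, adjusted p = 3.01e-21). It was also called higher in fibroblasts and in OPCs, whose mean of 1119 CPM was the highest of any type.

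Oligodendrocytes had 9 members higher and 8 lower, beside 21.3% and 25.5% of all genes, with a median difference of -0.01 for members and for all genes. Only 4 of these 9 exceeded the average CPM over the rest in every oligodendrocyte library. *Pcdh9*, a delta-1 protocadherin, had 7165, 12569 and 17996 CPM, and the highest sum of another type reached 5689 (log2 fold change 3.78 ± 0.2 SE, adjusted p = 2.21e-28). Every oligodendrocyte library was thus above every library of every other type for *Pcdh9*. A transcript of *Pcdh9* was found in 99.9% ± 0.259 (SD over 10 libraries) of oligodendrocyte nuclei after each nucleus was thinned to 2000 UMIs, against 29.1% ± 19.4 of microglia, with medians of 2759 and 3013 UMIs per kept nucleus before thinning. Without thinning these shares were 99.3% and 30.8%. The astrocyte levels of *Cdh1*, *Cdh3*, *Cdh4*, *Cdh7*, *Cdh8*, *Cdh12*, *Cdh13*, *Cdh18* and *Pcdh15*, and the oligodendrocyte levels of *Cdh3*, *Cdh4*, *Cdh7*, *Cdh9*, *Cdh12*, *Cdh16*, *Cdh18* and *Cdh24*, were at or below the neuronal background there. *Cdh8* in oligodendrocytes was above it and was called higher, at 87.4, 139 and 222 (log2 fold change 1.40 ± 0.19 SE, adjusted p = 1.15e-09). On the plain total its mean was still only 36.5% of the neuronal one. *Pcdh15*, *Cdh2* and *Pcdh17*, also called higher, stood at 55.9%, 64.0% and 86.7% of theirs.

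OPCs, the dividing precursors of oligodendrocytes, had 17 of the 24 tested members higher and 0 lower by edgeR's quasi-likelihood test, beside 19.1% and 14.7% of all genes, and a median member difference of 1.19 beside -0.06 for all genes. Only 10 of these 17 exceeded the average CPM over the rest in every OPC library. Against neurons alone, on the plain total, *Cdh4*, *Cdh8* and *Cdh18* were lower, at 36.7%, 30.7% and 53.7% of their neuronal means. On that total each other called member had a higher mean in OPCs than in neurons, *Pcdh19* only just, at 101.7%. With TMM factors *Pcdh19* was not above neurons, with 23.3 to 67.1 CPM in OPCs and 41.9 to 72.0 in neurons. *Pcdh15*, known for the tip links of inner ear hair cells, had 2420.5, 3626 and 4068 CPM over 9 libraries, and the highest sum of another type was 778 (log2 fold change 5.09 ± 0.19 SE, adjusted p = 9.05e-36). All OPC sums were above all others for *Pcdh15* and for *Cdh13*, the GPI-anchored T-cadherin, which had 465, 622 and 681 against at most 460.3 (log2 fold change 3.04 ± 0.17 SE, adjusted p = 2.26e-25). *Pcdh11x*, an X-linked delta-1 protocadherin, had 364, 729 and 924 (log2 fold change 3.35 ± 0.17 SE, adjusted p = 3.76e-28), and *Pcdh9* had 4312, 5231 and 5689 (log2 fold change 2.42 ± 0.22 SE, adjusted p = 1.16e-15). The range of *Pcdh11x* held 2 astrocyte sums and 1 oligodendrocyte sum and that of *Pcdh9* 1 astrocyte sum, whereas oligodendrocytes were above OPCs in *Pcdh9* throughout. *Cdh10* had 421, 533 and 629 in OPCs (log2 fold change 2.39 ± 0.19 SE, adjusted p = 1.73e-18), overlapping with astrocytes and oligodendrocytes. *Pcdh20*, which did not pass the filter, had 64 of its 241 UMIs in OPCs, which is 29.8 CPM against 1.28 in neurons. After thinning, an OPC nucleus held a transcript of 8.70 ± 0.47 of the 33 genes (SD, n = 9), a neuron of 6.02 ± 0.30, an astrocyte of 6.01 ± 0.48, an oligodendrocyte of 5.41 ± 0.55 and a microglial nucleus of 1.60 ± 0.91 (SD, n = 10). The OPC libraries did not overlap with those of the other 4 types in this number. Without the OPC sum whose neuron markers were highest, 17 members were again higher and 0 lower, while with single libraries left out the call of *Pcdh19* was lost in 6 of 10 cases.

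Microglia had the fewest members: 1 was higher and 19 lower, beside 22.7% and 27.3% of all genes, and the median member difference was -1.30 beside -0.11. The exception was *Cdh23*, the partner of *Pcdh15* in the hair cell tip link, with 168, 232 and 325 CPM against at most 48.0 in any other sum (log2 fold change 4.95 ± 0.17 SE, adjusted p = 6.05e-39). A *Cdh23* transcript was present in 36.9% ± 6.84 (SD, n = 10) of thinned microglia and in 0.973% ± 0.517 of thinned neurons. In microglia 15 of the 33 genes were at or below the neuronal background, *Cdh23* not among them.

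In ependymal cells, the ciliated lining of the ventricle, 3 members were higher and 8 lower, beside 26.6% and 19.5% of all genes (median difference -0.46 beside -0.01). *Cdh26* had 35.0, 103 and 193 CPM over 9 libraries against at most 17.2 elsewhere (log2 fold change 6.58 ± 0.26 SE, adjusted p = 3.54e-35), and 225 of its 304 UMIs lay in these nuclei. Every ependymal sum exceeded every other sum. *Cdh7* followed with 67.9, 101 and 185 (log2 fold change 1.97 ± 0.21 SE, adjusted p = 7.95e-13). Of its 9 sums 2 lay within the range of neurons and 7 below every neuron library. The third, *Cdh4*, had 25.6, 39.1 and 128 (log2 fold change 0.53 ± 0.22 SE, adjusted p = 0.0337), and its call was lost without the sum of replicate 4 with no sex in the title, the library at 128 CPM, and without each of 4 further libraries.

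Endothelial cells, with 7 sums of 10 to 64 nuclei, had 3 members higher and 14 lower, beside 18.2% and 20.4% of all genes, with a median member difference of -1.08 beside -0.20. *Cdh5*, the VE-cadherin of vessel walls, had 157 of its 248 UMIs there and 157, 197 and 353 CPM as lowest, median and highest library (adjusted p = 1.96e-35). No type but fibroblasts, with 2 sums, entered this range. It was at 0 in OPCs and in ependymal cells, and against the limit of 3 counts over the class it was at least 174-fold and 189-fold higher in endothelial cells. *Pcdh1* had 45.8, 88.4 and 135 (log2 fold change 1.91 ± 0.26 SE, adjusted p = 6.32e-09), and *Pcdh19*, whose human counterpart is an epilepsy gene, had 0, 101 and 157 (log2 fold change 1.46 ± 0.26 SE, adjusted p = 2.15e-06). The range of *Pcdh1* overlapped with that of neurons, and that of *Pcdh19* overlapped with all types, since 1 endothelial library was at 0.

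Fibroblasts, with 8 sums of 10 to 35 nuclei, had 3 members higher and 4 lower, beside 11.1% and 9.27% of all genes (median difference -0.61 beside -0.20). *Pcdh7* had 343, 992 and 1487 CPM (log2 fold change 2.07 ± 0.2 SE, adjusted p = 2.84e-14). *Cdh11*, a cadherin of mesenchymal cells, had 130.2, 217 and 572 (log2 fold change 1.68 ± 0.24 SE, adjusted p = 2.07e-08). Both ranges overlapped with those of other types. *Cdh5* was also called there, with 55 UMIs and 0, 101 and 197 CPM, a class mean of 104 against 218 in endothelial cells, while the summed endothelial markers *Flt1*, *Cldn5* and *Pecam1* were at 0.906% of their endothelial level. *Cdh1*, which did not pass the filter, had 54 of its 77 UMIs in fibroblasts and 0 in astrocytes, microglia, ependymal and endothelial cells. Without the fibroblast sum in which neuron markers were highest, 3 members were higher and 5 lower.

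The remaining members below the filter in the cell types had few UMIs over all nuclei, although *Cdh3*, *Cdh9* and *Cdh24* passed it in the neuron groups described next: *Cdh16* had 52 UMIs, *Cdh15* 85, *Pcdh8* 949, *Pcdh18* 1206, *Cdh9* 669, *Cdh3* 501 and *Cdh24* 1494. *Cdh3* (P-cadherin) had 483 of its 501 UMIs in neurons. Genes that work with cadherins were counted beside the members. Of the 7 catenins, which anchor cadherins to actin, all passed the filter, and endothelial cells had 4 higher (*Ctnnd1*, *Ctnnb1*, *Jup* and *Ctnna1*) and 3 lower, while microglia had 0 higher and 4 lower and neurons 3 higher (*Ctnna2*, *Ctnna3* and *Ctnnd2*) and 2 lower by edgeR's test. Among all genes 18.2% were higher and 20.4% lower in endothelial cells, 22.7% and 27.3% in microglia, and 29.5% and 27.9% in neurons. Of 17 further cadherin-superfamily genes 11 passed, with 7 higher in ependymal cells, among them the planar polarity genes *Celsr1*, *Celsr2*, *Fat1* and *Dchs1*, 6 each in neurons and astrocytes, 5 in OPCs and 0 in oligodendrocytes, where 6 were lower, beside 26.6% of all genes higher in ependymal cells, 22% in astrocytes, 19.1% in OPCs and 25.5% lower in oligodendrocytes. Of the 5 nectin and afadin genes 3 passed, with *Nectin1* and *Nectin3* higher in OPCs and 3 of 3 lower in microglia.

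Neurons of the punches came from several nuclei, and the cadherins and protocadherins separated them. The 10307 neurons with more than 1000 genes were clustered with all genes of the Cdh and Pcdh names left out, and clusters were named from markers of which none is a member: *C1ql3* and others for PVT-like, *Adarb2* for mediodorsal-like (MD), *Lpl* for intermediodorsal-like (IMD), *Gad2* for GABAergic neurons like those of the principal nucleus of the bed nucleus of the stria terminalis (BSTpr), and *Nwd2* for habenula-like neurons (Hb). They numbered 5790, 931, 790, 872 and 905, and a further cluster of 1019 neurons stayed unnamed. Clusters and levels come from the same nuclei, so that a small adjusted p says how stable a difference was over the 10 libraries and is not evidence from other cells. Of the 33 genes 23 passed the filter, 10 did not (*Cdh1*, *Cdh5*, *Cdh15*, *Cdh16*, *Cdh19*, *Cdh23*, *Cdh26*, *Pcdh8*, *Pcdh18* and *Pcdh20*), and 23 of the 23 differed among the 5 groups in the F test, beside 80.8% of 10375 genes, while all 23 were called higher in at least 1 group, beside 47%. BSTpr-like and IMD-like neurons had the most members higher and Hb-like neurons the most members lower (plot of 9 genes by neuron group).

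PVT-like neurons had 6 members higher and 8 lower, beside 11.2% and 6.68% of all genes. *Cdh6* and *Cdh7*, type II cadherins, were the leading members. *Cdh6* had 139.9, 169 and 196 CPM as lowest, median and highest library, and 2 BSTpr-like sums, of up to 160.4, lay within that range while all sums of the other groups were lower (log2 fold change 1.62 ± 0.088 SE, adjusted p = 4.17e-22). *Cdh7* had 173, 190.3 and 212 (log2 fold change 1.51 ± 0.096 SE, adjusted p = 1.69e-19), above the mean of the other groups in 10 of 10 libraries although single sums elsewhere reached 295. *Pcdh17*, a delta-2 protocadherin of presynaptic sites, had 177, 231 and 255 (log2 fold change 0.76 ± 0.085 SE, adjusted p = 5.51e-11). *Cdh18*, *Pcdh15* and *Pcdh10* were higher by 0.66, 0.56 and 0.54 on the log2 scale, and each was above the other groups' mean in 8 or 9 of 10 libraries. Of the lower members, *Cdh20* had 3.16, 4.94 and 8.98 in PVT-like neurons and a mean of 63.2 in the others (log2 fold change -3.47 ± 0.15 SE, adjusted p = 9.49e-26). *Cdh8* had 70.0, 130.4 and 186, below every sum of every other group, which ranged from 413 to 1541 (log2 fold change -2.50 ± 0.083 SE, adjusted p = 5.72e-31). *Cdh9*, *Cdh3*, *Cdh24*, *Cdh22*, *Cdh4* and *Pcdh9* were also lower, with log2 fold changes from -2.55 to -0.55.

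**Figure D2:**
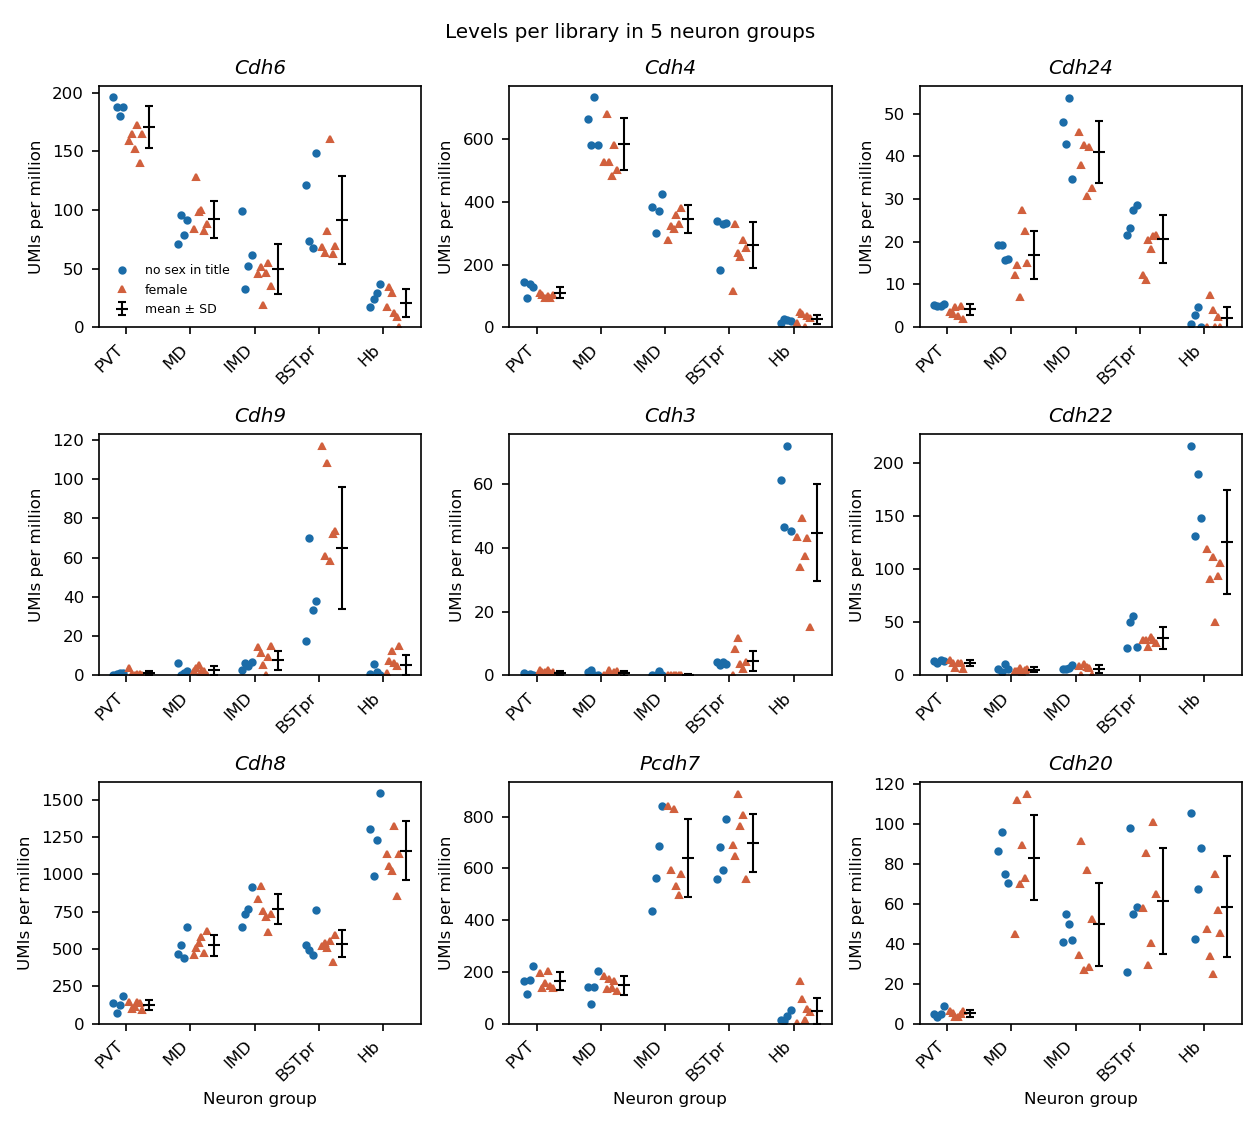
Levels of 9 genes in CPM (UMIs per 1000000, vertical axes, each from 0) in the 5 neuron groups (horizontal axis). Points are libraries (circles, no sex in the title; triangles, female) and bars the mean ± SD over 10 libraries; *Cdh6* is higher in PVT-like, *Cdh4* in MD-like, *Cdh24* in IMD-like, *Cdh9* in BSTpr-like and *Cdh3*, *Cdh22* and *Cdh8* in Hb-like neurons, and *Cdh20* is low in PVT-like neurons alone among the 5.

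MD-like neurons had 9 members higher and 8 lower, beside 14.7% and 18.4% of all genes. *Cdh4* had 483, 580.4 and 733 CPM, above every sum of the other groups, which reached 425 (log2 fold change 2.30 ± 0.081 SE, adjusted p = 1.11e-30). *Cdh11* behaved alike, with 292, 360.1 and 442 against at most 262 (log2 fold change 1.84 ± 0.092 SE, adjusted p = 5.23e-24). For both genes MD-like and other neurons did not overlap. *Cdh12* had 690.0, 753 and 1089 (log2 fold change 1.30 ± 0.11 SE, adjusted p = 8.38e-16), *Cdh20* 44.8, 80.5 and 115 (log2 fold change 1.30 ± 0.13 SE, adjusted p = 7.46e-13), and *Cdh2*, the neural N-cadherin, 491, 644 and 864 (log2 fold change 0.88 ± 0.075 SE, adjusted p = 4.87e-15), each above the others' mean in 10 of 10 libraries. *Cdh12* overlapped with 2 IMD-like sums, and *Cdh20* and *Cdh2* overlapped widely with IMD-like and other sums. *Cdh24*, *Pcdh1*, *Cdh13* and *Cdh18* were higher by 0.57 to 0.77, and the call of *Cdh18* was lost without replicate 3 of the libraries with no sex in the title (0.47) and without female replicate 1 (0.45). The members lower in MD-like neurons were *Cdh3*, *Cdh22*, *Pcdh11x*, *Cdh9*, *Pcdh17*, *Cdh7*, *Pcdh15* and *Pcdh7*.

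IMD-like neurons had 12 members higher and 4 lower, beside 9.2% and 5.35% of all genes. *Cdh24*, a type II cadherin that the study itself showed for this group, had 30.7, 42.4 and 53.8 CPM against at most 28.5 in the other named groups (log2 fold change 2.41 ± 0.14 SE, adjusted p = 3.93e-20), with no overlap among these. The unnamed neuron cluster, left out of this comparison, had a mean of 17.1 and a highest library of 35.9 on the plain total. *Pcdh7* had 435, 587 and 840.0 (log2 fold change 2.03 ± 0.13 SE, adjusted p = 4.92e-19) and shared its range with BSTpr-like neurons. *Cdh4* had 277, 343 and 425 (log2 fold change 1.35 ± 0.089 SE, adjusted p = 3.55e-18) and stayed below MD-like neurons. *Pcdh11x* had 79.5, 146 and 220.0 (log2 fold change 1.10 ± 0.13 SE, adjusted p = 2.54e-10), and *Cdh11* 202, 235 and 262 (log2 fold change 1.07 ± 0.1 SE, adjusted p = 1.18e-12), both above the others' mean in 10 of 10 libraries. *Pcdh15*, *Cdh7*, *Cdh12*, *Cdh8*, *Cdh2*, *Pcdh10* and *Cdh18* were higher by 0.55 to 0.82, and *Cdh3*, *Cdh22*, *Cdh10* and *Cdh6* were lower. The call of *Cdh18* was lost at 0.50 without replicate 3 of the libraries with no sex in the title.

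BSTpr-like neurons, the GABAergic group, had 15 members higher and 0 lower by edgeR's quasi-likelihood test, beside 11.8% and 8.02% of all genes, and a median member difference of 0.82 beside 0.00. *Cdh9*, known from synapses of hippocampal mossy fibres, was low in the other groups and had 17.4, 65.2 and 117 CPM here against at most 15.1 (log2 fold change 4.33 ± 0.2 SE, adjusted p = 4.87e-25). Its libraries spread widely, yet none fell into the range of another group. The limit of 15.1 came from the Hb-like sum of female replicate 6, and Hb-like sums held as few as 57906 UMIs. That limit and the lowest BSTpr-like level thus rest on few molecules. *Pcdh7* had 559.5, 687 and 887 (log2 fold change 2.20 ± 0.13 SE, adjusted p = 1.39e-20), *Pcdh19* 43.4, 115 and 158 (log2 fold change 1.82 ± 0.13 SE, adjusted p = 1.02e-17) and *Pcdh15* 512, 1047 and 1549.9 (log2 fold change 1.46 ± 0.078 SE, adjusted p = 5.49e-22). *Cdh18* had 856, 1106 and 1496 (log2 fold change 1.42 ± 0.12 SE, adjusted p = 1.93e-14). These 4 were above the others' mean in 10 of 10 libraries and overlapped with sums of other groups, *Pcdh7* and *Cdh18* only with IMD-like ones. The 10 further members called were *Pcdh11x*, *Cdh3*, *Cdh24*, *Cdh22*, *Pcdh17*, *Cdh20*, *Cdh4*, *Pcdh9*, *Cdh13* and *Pcdh10*, of which *Cdh3* exceeded the arithmetic mean over the rest in 0 of 10 libraries with the Hb-like level in that mean. Of the 15 members called, only 8 were above that arithmetic mean in every library. Besides *Cdh3*, the members *Cdh4*, *Cdh13*, *Cdh20*, *Cdh22*, *Cdh24* and *Pcdh9* were not.

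Hb-like neurons, set in the epithalamus, differed from the other groups in both directions, with 6 members higher and 17 lower, beside 20.3% and 20.7% of all genes, so that 23 of the 23 tested were called, and a median member difference of -1.88 beside 0.03. *Cdh3* had 15.1, 44.3 and 72.1 CPM against at most 11.7 (log2 fold change 5.99 ± 0.23 SE, adjusted p = 4.65e-29), and 414 of its UMIs lay in these neurons against 31, 6, 3 and 28 in PVT-, MD-, IMD- and BSTpr-like neurons. *Cdh22* had 49.9, 115 and 216 (log2 fold change 3.52 ± 0.11 SE, adjusted p = 8.58e-34) and *Cdh8* 851, 1136 and 1541 (log2 fold change 1.52 ± 0.067 SE, adjusted p = 1.43e-26). The Hb-like range of *Cdh22* held 1 BSTpr-like sum, at 55.5, and that of *Cdh8* held 2 IMD-like sums, of up to 921, while *Cdh3* did not overlap. The lowest Hb-like level of *Cdh3*, in female replicate 6, rests on few molecules. *Cdh10* had 193, 236 and 423 (log2 fold change 1.05 ± 0.083 SE, adjusted p = 2.23e-16), *Pcdh9* 2087, 2659.8 and 3709.8 (log2 fold change 0.64 ± 0.076 SE, adjusted p = 2.1e-10) and *Cdh20* 24.6, 52.1 and 105 (log2 fold change 0.97 ± 0.15 SE, adjusted p = 1.87e-07). Among the lower members, *Cdh4* had 0, 23.4 and 49.1 (log2 fold change -3.75 ± 0.15 SE, adjusted p = 9.18e-29), *Pcdh7* 3.95, 36.5 and 166 (log2 fold change -3.23 ± 0.21 SE, adjusted p = 2.3e-19) and *Cdh18* 9.87, 98.4 and 272 (log2 fold change -3.20 ± 0.18 SE, adjusted p = 6.22e-22). The other 14 fell by 0.75 to 2.90 on the log2 scale. A thinned Hb-like nucleus held a transcript of 4.17 ± 0.33 members (SD, n = 10), against 5.87 ± 0.21 in PVT-like, 6.63 ± 0.21 in MD-like, 7.34 ± 0.31 in IMD-like and 7.49 ± 0.37 in BSTpr-like nuclei, and the Hb-like libraries did not overlap with the rest.

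The authors' own 8 neuron clusters carry the members as they stand, without new clustering. They come from these same nuclei, and the methods name no genes left out. The members could thus have helped to shape these clusters. In them 24 members passed the filter and 24 of 24 differed in the F test, beside 83.8% of 10977 genes, with the smallest adjusted p for *Cdh8*, *Pcdh15*, *Pcdh7*, *Cdh4*, *Cdh22* and *Cdh11*. Neurons (6), of whose nuclei 93.8% were Hb-like, had 918, 1168 and 1703 CPM of *Cdh8*, while Neurons (4), 99.6% PVT-like, had 0, 9.04 and 30.4. These ranges lie far apart. *Cdh4* was highest in Neurons (3), 81.2% MD-like, at 445, 565 and 726. *Pcdh7* was highest in Neurons (5), 86.2% BSTpr-like, at 541, 667 and 953, and *Pcdh15* in Neurons (4) at 1409, 1608 and 2029.8. The clusters called Neurons (1) and (2), 94.0% and 96.0% PVT-like, had medians of 203 and 808 for *Pcdh15*.

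When neurons were instead split by the single markers *C1ql3*, *Adarb2*, *Lpl*, *Gad2* and *Nwd2* alone, 29 calls were made in place of 48 and 25 of the 48 were kept with their direction. In that split BSTpr-like neurons had 7 members higher and 3 lower in place of 15 and 0. Of their 15 calls those of *Cdh9*, *Pcdh15*, *Cdh18* and *Pcdh17* were kept, while *Pcdh7* and *Pcdh19*, at log2 differences of 0.16 and 0.39, no longer passed, as was so for *Pcdh11x* in IMD-like neurons at 0.23. The calls of *Cdh3*, *Cdh4*, *Cdh20* and *Cdh24* in BSTpr-like and of *Cdh7* in IMD-like neurons changed sign, while clustering with the members included kept all 48. Of the catenins, 4 were higher in MD-like neurons (*Ctnnd1*, *Jup*, *Ctnnd2* and *Ctnna1*), beside 14.7% of all genes, and 3 lower in Hb-like neurons, beside 20.7%. Of 8 tested cadherin-superfamily genes 2 were higher in each of the 5 groups, beside 9.2% to 20.3% of all genes.

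PVT-like neurons were divided once more into 5 subtypes, PVT1-like to PVT5-like, of 2376, 761, 1017, 671 and 779 nuclei, again with the Cdh and Pcdh genes left out of the clustering, and a cluster of 186 nuclei led by immediate early genes stayed unnamed. PVT2-like neurons carry *Col12a1*, PVT3-like *Cadps2* and PVT4-like *Npsr1*. A few members set the subtypes apart: *Cdh8* and *Cdh11* were high in PVT2-like, *Pcdh15* in PVT3-like and PVT4-like, *Pcdh7* in PVT4-like, and *Cdh6* and *Pcdh9* in PVT5-like neurons (plot of 6 genes by PVT subtype). Of the 33 genes 19 passed the filter, and 18 of the 19 differed among subtypes in the F test, all but *Pcdh1*, beside 49.7% of 9331 genes. The 14 that did not pass were *Cdh1*, *Cdh3*, *Cdh5*, *Cdh9*, *Cdh15*, *Cdh16*, *Cdh19*, *Cdh20*, *Cdh22*, *Cdh23*, *Cdh24*, *Cdh26*, *Pcdh8* and *Pcdh20*. Against the mean of the other 4 subtypes, 25 calls were made for 13 members, beside 15.9% of genes called higher in at least 1 subtype, and *Cdh2*, *Cdh12*, *Cdh13*, *Pcdh1*, *Pcdh10* and *Pcdh11x* were called higher in no subtype by edgeR's test.

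**Figure D3:**
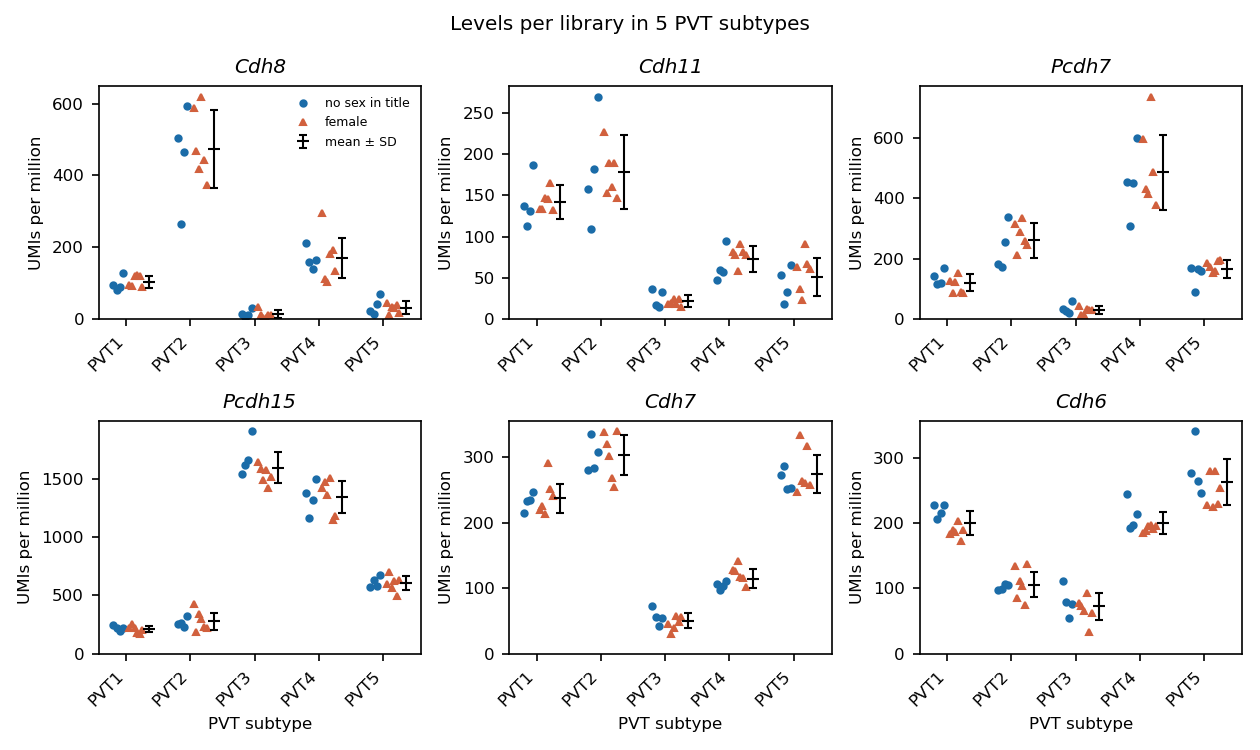
Levels of 6 genes in CPM (UMIs per 1000000, vertical axes, each from 0) in the 5 PVT-like subtypes (horizontal axis). Points are libraries (circles, no sex in the title; triangles, female) and bars the mean ± SD over 10 libraries; *Cdh8* stands out in PVT2-like, *Pcdh15* in PVT3-like and PVT4-like and *Pcdh7* in PVT4-like neurons, and *Cdh7* is lowest in PVT3-like neurons.

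PVT1-like neurons had 4 members higher and 3 lower, beside 3.47% and 2.93% of all genes. *Cdh11* had 113, 135 and 187 CPM (log2 fold change 1.25 ± 0.060 SE, adjusted p = 8.55e-32), which overlapped with PVT2-like neurons and with no other subtype. *Cdh7* had 213, 234 and 291 (log2 fold change 0.70 ± 0.046 SE, adjusted p = 2.47e-23), *Pcdh17* 205, 273 and 336 (log2 fold change 0.58 ± 0.053 SE, adjusted p = 3.11e-16) and *Cdh6* 174, 197 and 228 (log2 fold change 0.56 ± 0.049 SE, adjusted p = 3.97e-17), each above the others' mean in 10 of 10 libraries. *Pcdh15* was lower, at 164, 216 and 257 (log2 fold change -1.87 ± 0.049 SE, adjusted p = 3.97e-49), as were *Cdh18* and *Cdh4*.

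PVT2-like neurons had 7 members higher and 3 lower, beside 5.66% and 4.4% of all genes. *Cdh8* had 263, 467 and 618 CPM, and the highest sum of another subtype was 294, in PVT4-like neurons (log2 fold change 3.07 ± 0.079 SE, adjusted p = 1.49e-50). The 10 PVT2-like libraries thus overlapped with a single sum elsewhere. *Cdh11* had 109, 171 and 270.5 (log2 fold change 1.72 ± 0.069 SE, adjusted p = 2.84e-37), *Cdh7* 254, 304 and 340.0 (log2 fold change 1.10 ± 0.054 SE, adjusted p = 2.67e-31) and *Pcdh7* 172, 256 and 339 (log2 fold change 0.97 ± 0.079 SE, adjusted p = 1.73e-18). *Pcdh19* had 68.2, 87.3 and 132 against at most 66.3 (log2 fold change 1.06 ± 0.077 SE, adjusted p = 3.06e-21), the only member here without overlap. *Cdh10* and *Pcdh17* were higher by 0.62 and 0.53, and the call of *Pcdh17* was lost without female replicate 4 (0.50) and without female replicate 6 (0.47). *Pcdh15*, *Cdh18* and *Cdh6* were lower, the first at 183, 259 and 425 (log2 fold change -1.43 ± 0.057 SE, adjusted p = 1.68e-37).

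PVT3-like neurons had 3 members higher and 7 lower, beside 6.14% and 7.31% of all genes. *Pcdh15* had 1422, 1577 and 1909 CPM (log2 fold change 1.79 ± 0.039 SE, adjusted p = 5.56e-56), and only PVT4-like sums, of up to 1507, entered this range. *Cdh4* had 118, 176 and 225 (log2 fold change 0.75 ± 0.056 SE, adjusted p = 8.51e-21) and *Cdh18* 1056, 1151 and 1352 (log2 fold change 0.68 ± 0.051 SE, adjusted p = 5.78e-21). On the lower side, *Cdh8* had 1.86, 10.0 and 33 (log2 fold change -3.10 ± 0.14 SE, adjusted p = 4.62e-34), *Pcdh7* 10.7, 29.5 and 59.4 (log2 fold change -2.79 ± 0.11 SE, adjusted p = 9.58e-39) and *Cdh11* 14.5, 18.9 and 35.8 (log2 fold change -2.12 ± 0.099 SE, adjusted p = 3.54e-33). *Cdh7* had 30.4, 51.7 and 72.7 (log2 fold change -2.08 ± 0.070 SE, adjusted p = 7.47e-43), below every sum of the other 4 subtypes. *Cdh6*, *Cdh10* and *Pcdh10* were lower as well.

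PVT4-like neurons had 7 members higher and 2 lower, beside 4.92% and 4.77% of all genes. *Pcdh7* had 309, 454 and 737 CPM, and PVT2-like sums reached 339 (log2 fold change 2.09 ± 0.071 SE, adjusted p = 5.16e-42). *Pcdh15* had 1146, 1368 and 1507 (log2 fold change 1.47 ± 0.042 SE, adjusted p = 6.42e-47), so that PVT3-like and PVT4-like neurons shared it and parted at *Pcdh7*. *Cdh10* had 152, 186 and 236 (log2 fold change 0.74 ± 0.066 SE, adjusted p = 1.85e-16) and *Cdh18* 939, 1196 and 1595 (log2 fold change 0.73 ± 0.053 SE, adjusted p = 3.23e-21). *Cdh8* was called higher, at 103, 161 and 294 (log2 fold change 1.08 ± 0.1 SE, adjusted p = 1.64e-15), but exceeded the arithmetic mean over the rest in only 5 of 10 libraries, and in nuclei split by *Col12a1*, *Cadps2* and *Npsr1* alone its difference was -1.52 (adjusted p = 1.09e-15). *Pcdh18* and *Cdh6* were higher by 0.69 and 0.54, and *Cdh7* and *Pcdh17* lower.

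PVT5-like neurons had 4 members higher and 4 lower, beside 3.23% and 3.1% of all genes. *Cdh6* had 226, 259.8 and 342 CPM (log2 fold change 1.00 ± 0.055 SE, adjusted p = 1.52e-27) and *Cdh7* 247, 262 and 334 (log2 fold change 0.94 ± 0.053 SE, adjusted p = 3.91e-27), the former overlapping with 2 PVT1-like sums and 1 PVT4-like sum and the latter with 2 PVT1-like and 7 PVT2-like sums, the other 3 PVT2-like sums lying above it. *Pcdh9* had 1534, 2417 and 3013 (log2 fold change 0.86 ± 0.053 SE, adjusted p = 7.47e-25) and overlapped with 5 PVT4-like sums, 3 PVT2-like sums and 1 PVT3-like sum, and *Cdh18* had 887, 1263 and 1496 (log2 fold change 0.75 ± 0.052 SE, adjusted p = 6.21e-22). All 4 exceeded the other subtypes' mean in each of the 10 libraries. *Cdh8*, *Cdh11*, *Pcdh17* and *Cdh10* were lower, with log2 fold changes from -1.35 to -0.56. Of the 7 catenins, *Ctnna2* was higher in PVT2-like and *Ctnna3* in PVT4-like neurons, by edgeR's test, beside 5.66% and 4.92% of all genes.

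The same members split the subtypes by the share of nuclei with a transcript (bar plot of shares). After thinning to 2000 UMIs, *Cdh8* was found in 50.7% ± 15.9 (SD, n = 10) of PVT2-like nuclei and in 1.81% ± 1.95 of PVT3-like nuclei. *Pcdh15* was found in 87.4% ± 2.77 of PVT3-like and 27.3% ± 4.52 of PVT1-like nuclei, and *Pcdh7* in 46.8% ± 8.39 of PVT4-like and 5.51% ± 3.42 of PVT3-like nuclei. Without thinning, at medians of 10609 to 13662 UMIs per nucleus, the higher of each pair of shares was 82.2%, 97.3% and 72.9%. For comparison, thinned microglia, in which *Cdh8*, *Pcdh15* and not *Pcdh7* were at or below the neuronal background, had them in 4.26% ± 4.29, 7.76% ± 8.77 and 7.13% ± 8.25. The mean PVT3-like share of *Cdh8* was thus below the microglial one, with wide spreads in both. Whether it is background in these neurons was not tested. Across the 50 sums of library and subtype, *Cdh8* and *Cdh10* had a Pearson r of 0.86 and *Cdh18* and *Pcdh15* of 0.86, while *Cdh7* and *Pcdh15* had -0.81 and *Cdh11* and *Pcdh15* -0.80. These sums share libraries and clusters and are no independent points.

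**Figure D4:**
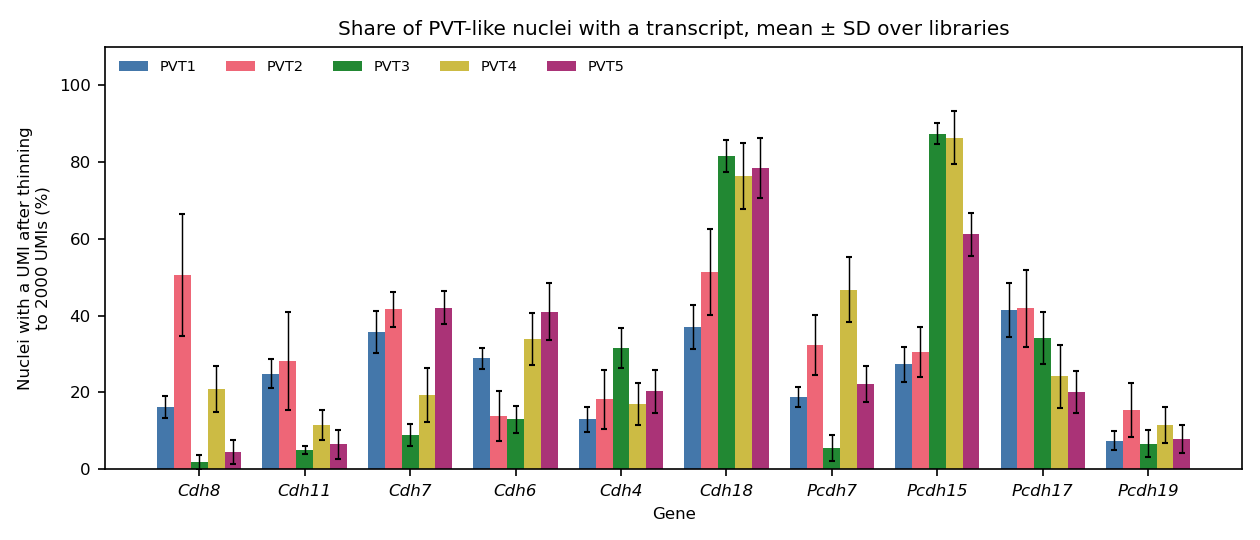
Share of nuclei with at least 1 UMI of the gene after thinning each nucleus to 2000 UMIs (vertical axis, percent) for 10 genes (horizontal axis) in the 5 PVT-like subtypes. Bars are means and whiskers ± SD over 10 libraries; the PVT2-like bar leads for *Cdh8* at 50.7%, and the PVT3-like and PVT4-like bars lead for *Pcdh15* at 87.4% and 86.3%.

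Several members lie in runs along the genome. On the RefSeq annotation of GRCm38, 5 type II cadherins, *Cdh6*, *Cdh9*, *Cdh10*, *Cdh12* and *Cdh18*, follow one another on chromosome 15, with 0.950 to 3.55 Mb between neighbours, and their highest mean levels lay in 4 neuron groups: *Cdh6* led in PVT-like, *Cdh10* in Hb-like and *Cdh12* in MD-like neurons, and *Cdh9* and *Cdh18* both led in BSTpr-like neurons. *Cdh20*, *Cdh7* and *Cdh19* follow one another on chromosome 1. There *Cdh7* had its highest group mean in PVT-like neurons, though PVT3-like neurons were low in it, and *Cdh19* had its highest mean in oligodendrocytes. On chromosome 8, *Cdh3* and *Cdh1* lie 46.4 kb apart, the former counted mostly in Hb-like neurons and the latter in fibroblasts. The RefSeq promoter table held 25 start sites for 22 of the 33 genes. The 250 bases before an annotated start are shown for the 3 genes with the smallest adjusted p among the PVT-like subtypes, with each CG in capitals, on the strand of the gene. The window of *Cdh8* is chr8:99416472-99416721 (minus strand), that of *Pcdh15* is chr10:73821617-73821866 (plus strand), and that of *Cdh7* is chr1:109982650-109982899 (plus strand), the first of 3 listed starts. All 3 windows lie inside the annotated span of their gene, which begins further upstream.
Cdh8: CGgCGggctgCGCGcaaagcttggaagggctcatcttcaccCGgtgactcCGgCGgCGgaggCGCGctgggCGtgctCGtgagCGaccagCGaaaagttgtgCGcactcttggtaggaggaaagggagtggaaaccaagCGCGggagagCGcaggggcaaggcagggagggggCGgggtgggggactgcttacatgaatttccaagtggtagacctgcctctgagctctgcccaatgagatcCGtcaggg
Pcdh15: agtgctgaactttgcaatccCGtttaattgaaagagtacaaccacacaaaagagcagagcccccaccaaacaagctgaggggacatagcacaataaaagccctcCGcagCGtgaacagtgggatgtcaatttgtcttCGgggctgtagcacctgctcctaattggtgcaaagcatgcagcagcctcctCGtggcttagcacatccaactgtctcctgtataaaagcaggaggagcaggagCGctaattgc
Cdh7: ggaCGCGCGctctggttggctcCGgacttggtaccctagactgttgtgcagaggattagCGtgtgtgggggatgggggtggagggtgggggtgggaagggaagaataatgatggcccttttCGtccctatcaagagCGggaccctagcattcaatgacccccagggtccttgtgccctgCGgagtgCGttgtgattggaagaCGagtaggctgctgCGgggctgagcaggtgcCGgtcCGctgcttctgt

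The *Cdh8* window held 20 CG, the *Cdh7* window 13 and the *Pcdh15* window 6. The ratio of observed CG to the number that the base composition gives was 0.83, 0.61 and 0.38, beside a median of 0.57 over the 25 member windows and 0.37 over all 32851 windows of that table. Read on both strands, the letters CAGGTG occur in the windows of *Cdh7* and *Pcdh15* and in 17.2% of all windows, TATAAA in those of *Pcdh15* and *Pcdh8* and in 12.4%, and ATCAAAG in no member window and in 3.2%. A match here is a description of the sequence and not a bound site.

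The only groups of samples in the labels are the female libraries and those with no sex in the title, and these sets also differ in depth and in the genes counted, so that their differences cannot be told apart. In summed neurons 1 member differed, beside 15.2% of 15278 genes (6.77% higher and 8.38% lower in the female set). With factors fitted to the neuron sums alone, *Cdh23* had 4.88 ± 1.2 CPM in the 6 female libraries, from 3.67 to 6.85, and 2.26 ± 0.44 (SD, n = 4) in the other set, from 1.67 to 2.70, with no overlap (log2 fold change 1.12 ± 0.24 SE, adjusted p = 0.00559). Microglia were the type with the highest *Cdh23*, and their markers in neurons ranged from 68.7 to 122 CPM over the female and from 31.8 to 94.9 over the other libraries, a difference whose part in the result was not tested. *Cdh15* had 0 UMIs in the female libraries, as did 1555 genes with at least 50 UMIs in the other set. Differences of a class between the sets were found for *Cdh12* in Hb-like neurons (1.20 ± 0.24 SE, female minus other, adjusted p = 0.00212), for *Cdh10* in Hb-like neurons (-0.64 ± 0.13 SE, adjusted p = 0.00317) and for *Cdh10* in MD-like neurons (0.59, adjusted p = 0.020), beside 2.00% of genes in Hb-like and 0.829% in MD-like neurons.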

How the data were processed

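Nuclei of PVT punches were profiled by droplet single-nucleus RNA-seq, and the authors deposited matrices of UMI counts per gene and nucleus with a metadata table of cluster names, sex and each nucleus's mitochondrial percent (medians of 0.123 to 1.45 per library). The submitters' processing notes name Cell Ranger 6.1.1 and mm10. 21 further metadata columns were not used. Counts were summed per library and class (at least 10 nuclei, 30455 to 45997180 UMIs a sum) and scaled to counts per 1000000 (CPM), for members with TMM factors and for marker lists and clusters left unnamed without them. Each class was compared with the mean of the others by edgeR's quasi-likelihood test (edgeR 4.0.16, R 4.3.3, TMM scaling, low-count filter, library as a block), with Benjamini-Hochberg adjustment over all genes tested. The methods describe 4 biological replicates, each a pool of mice, and do not say how the 6 female libraries were pooled. Independence of all 10 libraries is thus assumed. Sums of the same library deviated together (median r 0.428 over cell types, 0.711 over neuron groups and 0.727 over PVT subtypes, against -0.134, -0.451 and -0.532 for different libraries), so libraries pair the classes. The replicate numbers of the female and other libraries only name samples.

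Neurons with more than 1000 genes were clustered without Cdh and Pcdh genes (leidenalg 0.10.2, 6 components and resolution 0.3, then 18 and 0.4 within PVT-like nuclei). Before each clustering the components were corrected for differences between libraries by code written after the description of the Harmony method. The rule that left clusters unnamed was set after they were seen. Doublets were called in 200 of 20503 nuclei and kept, with an alternative without them. For shares of nuclei each nucleus was thinned to 2000 UMIs and shallower nuclei were left out, 197 of 10410 neurons and 430 of 993 microglia. Not every called member was named. Full statistics were given for up to 5 of the largest rises present in every library and up to 6 from each F test. Lower and further members were chosen after their values were seen. The members, lists and tests were chosen with earlier results of these data known. Alternatives were DESeq2 1.42.0, RLE factors, no filter, no block, each library left out, each set alone and groups split by single markers. The fits were tested on simulated counts. Intervals and limits from counts cover counting error only.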

Additional observations from a re-analysis of the deposited data

Results flagged for a closer look

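Of 136 sets of called values, 16 held a library far from the others by Dixon's criterion, where chance gives about 1 in 20. In OPCs the library with no sex in the title, replicate 4, whose 18 nuclei had high neuron markers, stood apart with 719 CPM of *Cdh18*, 348 of *Cdh6*, 238 of *Cdh20* and 152 of *Pcdh10*. The same library stood apart in ependymal cells for *Cdh4* (128) and in PVT3-like neurons for *Pcdh15* (1909). Replicate 1 of that set stood apart in astrocytes for *Cdh22* (362) and *Pcdh10* (196) and in PVT4-like neurons for *Cdh6* (245), and replicate 2 in PVT5-like neurons for *Cdh6* (342). Among the female libraries, replicate 2 stood apart in MD-like neurons for *Cdh12* (1089) and *Cdh2* (864), replicate 1 in IMD-like neurons for *Cdh7* (249), and replicate 5 in PVT-like neurons for *Pcdh15* (484). Female replicate 4 stood apart in Hb-like neurons for *Pcdh9* (3710) and in PVT1-like neurons for *Cdh7* (291).

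The excess of *Cdh10* in Hb-like neurons differed between the sets of libraries. It was 0.71 on the log2 scale in the female libraries and 1.31 in the others when fitted separately, and in 1 fit a difference of -0.64 (adjusted p = 0.00317, edgeR's quasi-likelihood test). Sex, depth and counted genes cannot be told apart there.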

How the results depend on the processing

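Splitting neurons by single markers gave 29 higher calls in place of 48 over the neuron groups. Of the 17 higher calls over PVT2-like to PVT4-like neurons it kept 11. In that split 7 calls changed sign: *Cdh7* in IMD-like (-0.042), *Cdh20* (-1.17), *Cdh4* (-0.022), *Cdh3* (-1.13) and *Cdh24* (-0.68) in BSTpr-like, and *Pcdh18* (-0.11) and *Cdh8* (-1.52) in PVT4-like neurons; the cause was not tested. Without the low-count filter 3 members in place of 1 differed between the library sets. Unthinned shares were 82.2% for *Cdh8* in PVT2-like, 97.3% for *Pcdh15* in PVT3-like and 72.9% for *Pcdh7* in PVT4-like nuclei, and thinning to 1000 UMIs gave 32.3%, 72.0% and 32.2%, as fewer UMIs were kept.

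With 1 library left out, higher calls numbered 62 to 68 over cell types, 47 to 51 over neuron groups, 24 to 27 over PVT subtypes and 16 to 18 over PVT2-like to PVT4-like neurons. Members differing over the deposited clusters numbered 23 to 25, and those differing between the sets 1 to 2, with 2 without replicates 2 or 4 of the set with no sex in the title or without female replicate 1. The shares ranged from 48.1 to 54.7%, 87.0 to 87.9% and 44.6 to 47.6% for *Cdh8*, *Pcdh15* and *Pcdh7*. Calls kept in each of these fits numbered 60 of 63, 46 of 48 and 24 of 25, and calls kept under every alternative run 55, 25 and 18; *Cdh2* in oligodendrocytes fell to 0.50 without replicate 2 of the set with no sex in the title. In the libraries with no sex in the title alone, calls were lost for *Cdh11* in fibroblasts (1.12), *Cdh22* (0.81), *Cdh8* (0.66) and *Pcdh19* (0.26) in OPCs, *Pcdh17* in oligodendrocytes (0.34), *Pcdh9* in neurons (0.26), *Cdh18* in MD-like (0.50) and *Pcdh17* in PVT2-like neurons (0.47). In the female libraries alone they were lost for *Cdh4* in ependymal cells (0.20), *Pcdh15* in PVT-like (0.49), *Cdh18* in IMD-like (0.42) and *Cdh6* in PVT1-like neurons (0.48). With the unnamed cluster counted as MD-like, a setting chosen after seeing the data, *Pcdh10* in PVT-like (0.50) and *Cdh18* in MD-like neurons were lost. Without the replicate block 61, 49 and 26 calls were made, and a block on the replicate numbers 1 to 4 across the sets left 1 member. The numbers did not pair the sets (correlations -0.108, -0.236, -0.168 and 0.252). DESeq2 gave 65, 48 and 25 calls. Sums of 10 to 64 endothelial and 10 to 35 fibroblast nuclei limit what could be detected there.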

Other observations

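The unnamed cluster of 1019 neurons, led by *Rxfp1*, *Trpm6* and *Slc17a8*, had its own levels over the 10 libraries, given per 1000000 UMIs of the plain total. *Cdh11* stood at 239 ± 29.7 CPM (SD, n = 10), *Cdh8* at 297 ± 55.9, *Cdh4* at 251 ± 62.2 and *Cdh13* at 459.9 ± 32.4. *Pcdh15* stood at 162 ± 37.7, and *Cdh3* and *Cdh5* had 0 UMIs. Its *Cdh20* level was 15.9 ± 8.5.

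Within the PVT-like subtypes a thinned nucleus held a transcript of 5.55 ± 0.21 members in PVT1-like, 6.44 ± 0.58 in PVT2-like, 5.52 ± 0.29 in PVT3-like, 6.65 ± 0.22 in PVT4-like and 6.201 ± 0.19 in PVT5-like neurons (SD, n = 10).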
